A study of Mus musculus with 12 samples.

Results

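The 10 genes described here encode neurofilament chains and other cytoskeletal or axonal proteins of neurons: Nefl, Nefm, Nefh, Ina, Stmn2, Stmn3, Tubb3, Gap43, Mapt and Uchl1. They were taken by name from 38481 genes, and Nefl, Nefm, Stmn2 and Tubb3 were selected on their measured rise with an siRNA against Crebl2 in these same libraries, so for these 4 the siRNA comparisons are given as values with no test. RNA came from C2C12, a mouse myoblast line, kept in DMEM with 10% FBS. Cells carried an siRNA for 3 days and were then treated for 12 hours, which gave 4 groups of 3 libraries: Crebl2 siRNA with 20 nM rapamycin (siCrebl2 rapamycin), Crebl2 siRNA with ethanol (siCrebl2 ethanol), Renilla luciferase siRNA with 20 nM rapamycin (siLuc rapamycin) and the same control siRNA with ethanol (siLuc ethanol). All groups share the cell line and the medium, and the labels name 1 siRNA sequence against Crebl2, so an effect of that sequence on other RNAs cannot be told apart from the loss of Crebl2. The labels do not state whether the 3 libraries of a group are separate cultures. The p-values therefore reflect the variation among libraries, part or all of which could be technical.

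Neurofilaments are the intermediate filaments of axons. They are built from a light, a medium and a heavy chain with alpha-internexin, and their number sets axon calibre. Stathmins bind free tubulin and promote microtubule disassembly, class III beta-tubulin is a tubulin isotype typical of neurons, tau binds along axonal microtubules, and growth-associated protein 43 sits under the membrane of the growth cone. Rapamycin inhibits the kinase mTOR in its complex 1, and Crebl2 is a bZIP-domain protein related to CREB.

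Library totals ran between 33404087 and 42891015 counts. Crebl2, the targeted gene, had 10.7, 8.97 and 9.49 CPM in siCrebl2 rapamycin and 4.87, 7.41 and 6.02 CPM in siCrebl2 ethanol libraries, against 40.0, 36.4 and 36.3 CPM in siLuc rapamycin and 23.8, 25.3 and 26.2 CPM in siLuc ethanol libraries. CPM are edgeR's counts scaled to the library total, after TMM scaling. The labelled cell type was met by its markers: Myod1 lay between 175 and 280 CPM, Myf5 between 70.7 and 94.9 CPM and Cdh15 between 468 and 925 CPM over the 12 libraries. Of the 10 genes, 7 passed the filter on low counts, which left 13247 genes for testing. Nefh, Ina and Stmn3 did not pass it.

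Nefl and Nefm lie next to each other on chromosome 14 of GRCm38, Nefl at chr14:68083863-68089095 on the plus strand and Nefm at chr14:68082590-68124846 on the minus strand. Nefm has 2 listed transcripts, and reads that several listed transcripts share are missing from these counts, so the levels of Nefm rest on bases that belong to 1 transcript. The transcripts part after exon 2, whose last base is 68122821. The next exon of Nefm-201 begins at 68121384 and that of Nefm-202 at 68116016, and the last exon of Nefm-202 runs antisense over 1108 bases of Nefl. The junctions are shown because they tell the 2 transcripts apart; lower case is the end of exon 2 and capitals are the first 15 bases of the next exon, read from the GENCODE M21 transcripts, 5′ to 3′.
Nefm-201: gatcgccgcgtacagGAAACTCCTAGAGGG
Nefm-202: gatcgccgcgtacagACTATGGAAGCTGAG
Nefm-202 held 1.07% to 5.13% of the Nefm counts in a library, and 0.188% to 1.08% as many counts as Nefl. Nearly all Nefm reads therefore came from Nefm-201, which does not reach Nefl. Counted without regard to strand, 67.2% of the exonic bases of Nefl would belong to it alone.

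RefSeq promoter entries (GRCm38.p6, from 250 bases before RefSeq's start of the gene to 50 bases after) matched 4 of the 10 genes, Ina, Stmn3, Tubb3 and Uchl1. They are of interest because Tubb3 was well expressed, Ina and Stmn3 were near 0 counts, and Uchl1 changed little. RefSeq's start differs from the GENCODE start of the coordinates given with each gene for Tubb3, Ina and Uchl1. Capitals mark matches, on either strand, of 5 short motifs. These were the cAMP response element (CRE) TGACGTCA and its core, written TGACG, which every full element also holds. The others were the E-box of bHLH factors, CANNTG, then the GC box bound by Sp1, with the letters GGGCGG, and the TATA box, searched as TATAAA.
Tubb3, chr8:123411303-123411602, plus strand: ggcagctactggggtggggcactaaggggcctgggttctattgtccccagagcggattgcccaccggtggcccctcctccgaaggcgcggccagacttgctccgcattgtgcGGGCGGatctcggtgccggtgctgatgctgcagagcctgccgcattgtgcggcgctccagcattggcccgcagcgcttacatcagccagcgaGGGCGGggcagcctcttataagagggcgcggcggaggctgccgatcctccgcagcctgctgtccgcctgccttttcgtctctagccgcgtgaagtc
Ina, chr19:47014431-47014730, plus strand: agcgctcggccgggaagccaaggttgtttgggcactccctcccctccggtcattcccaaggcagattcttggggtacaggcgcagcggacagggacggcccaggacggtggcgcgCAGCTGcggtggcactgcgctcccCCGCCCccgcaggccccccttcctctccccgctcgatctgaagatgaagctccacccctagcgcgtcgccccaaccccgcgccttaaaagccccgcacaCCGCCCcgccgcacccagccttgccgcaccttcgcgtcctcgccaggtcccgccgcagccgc
Stmn3, chr2:181314451-181314750, minus strand: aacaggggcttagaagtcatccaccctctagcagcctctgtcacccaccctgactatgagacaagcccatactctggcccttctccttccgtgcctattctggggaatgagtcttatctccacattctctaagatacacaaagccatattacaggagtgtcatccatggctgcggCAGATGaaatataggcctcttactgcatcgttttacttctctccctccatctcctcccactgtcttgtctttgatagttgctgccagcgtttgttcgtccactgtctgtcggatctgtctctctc
Uchl1, chr5:66675871-66676170, plus strand: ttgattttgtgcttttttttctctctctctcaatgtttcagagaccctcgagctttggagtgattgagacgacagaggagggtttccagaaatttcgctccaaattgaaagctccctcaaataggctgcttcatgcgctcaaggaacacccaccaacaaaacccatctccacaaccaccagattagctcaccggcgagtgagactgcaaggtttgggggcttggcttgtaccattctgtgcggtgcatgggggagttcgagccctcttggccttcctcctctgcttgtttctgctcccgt
Tubb3 had 2 GC boxes, at −138 and −46 from RefSeq's start. Ina had 2 GC boxes, at −111 and −12, and 1 E-box at −135, Stmn3 had 1 E-box at −75, and the Uchl1 window held none of the 5 motifs. The left and right parts of the RE1 element, bound by the repressor REST, were searched too and are not in capitals. The left part, TTCAGCACC, was in none of the 4 windows and in 0.371% of all promoters. The right part, GGACAGC, was in 6.56% of all promoters and matched once in these windows, in Tubb3 at 12 on the minus strand. No window held a CRE, its core or a TATA box. Over all 32851 promoters of this length, 1.79% held the CRE, 20.8% its core, 72.3% an E-box, 35.7% a GC box and 13.6% a TATA box. The windows of Ina and Tubb3 were 71.7% and 67.3% G or C, and those of Uchl1 and Stmn3 50.7% and 49.7%.

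Nefl, the light chain on which neurofilaments assemble, reached 136, 178 and 138 CPM in siCrebl2 rapamycin and 290, 304 and 294 CPM in siCrebl2 ethanol libraries, against 20.6, 24.1 and 24.0 CPM in siLuc rapamycin and 48.6, 57.9 and 53.6 CPM in siLuc ethanol libraries. All 4 groups were separate, with siCrebl2 ethanol highest and siLuc rapamycin lowest. The level with the Crebl2 siRNA was 5.55-fold that with the control siRNA in ethanol (log2 fold change 2.47, SE 0.10) and 6.58-fold in rapamycin (2.72, SE 0.10). Both values belong to the choice of the gene and are given without a test.

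Nefm, the medium chain, had 19.1, 28.5 and 19.7 CPM in siCrebl2 rapamycin and 53.3, 53.1 and 50 CPM in siCrebl2 ethanol libraries, against 4.33, 5.34 and 5.23 CPM in siLuc rapamycin and 10.2, 11.3 and 12.0 CPM in siLuc ethanol libraries. Its groups stood in the same order as those of Nefl and did not overlap. The siRNA ratio was 4.67-fold in ethanol (2.22, SE 0.13) and 4.51-fold in rapamycin (2.17, SE 0.14), again with no test.

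The other 2 chains of the filament were almost absent. Nefh, the heavy chain (chr11:4938754-4948064, minus strand), had 1 to 10 counts per library, and Ina, alpha-internexin (chr19:47014698-47025327, plus strand), had 0 to 4 counts. Every exonic base of both genes was countable, that is, belonged to 1 listed transcript, with none shared on their own strand; 456 Ina bases lie opposite exons of Nt5c2. Per kilobase of countable sequence, the mean level of Nefl was 44.6 in siCrebl2 rapamycin, 87.6 in siCrebl2 ethanol, 6.78 in siLuc rapamycin and 15.8 CPM per kb in siLuc ethanol cells. Nefm stood at 10.7, 24.8, 2.36 and 5.32 CPM per kb in that order of groups, and Nefh between 0.0187 and 0.0374 CPM per kb.

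**Figure D1:**
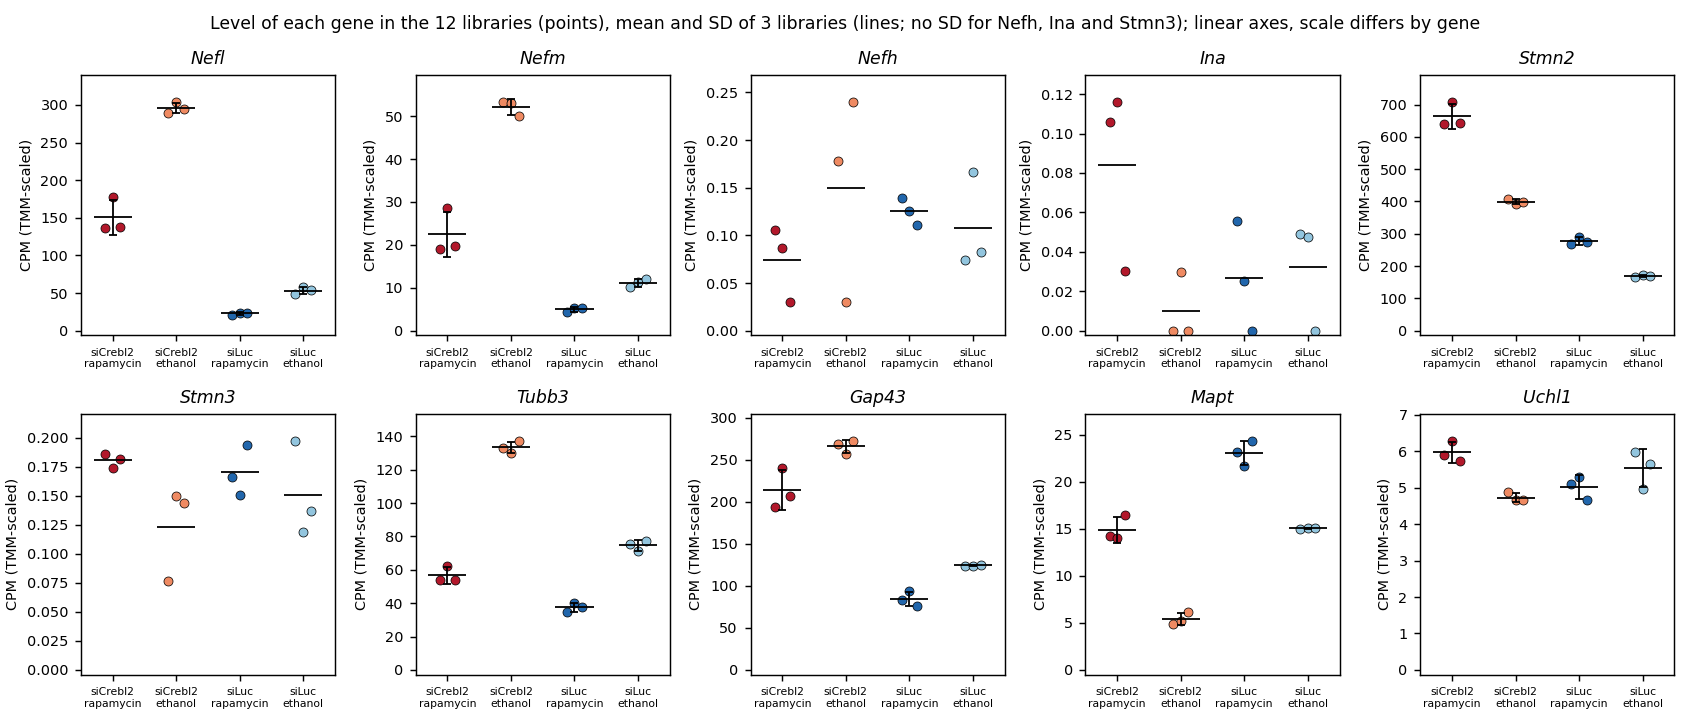
Level of each of the 10 genes in every library (points, CPM after TMM scaling, linear axes whose scale differs by gene), with siCrebl2 rapamycin, siCrebl2 ethanol, siLuc rapamycin and siLuc ethanol libraries from left to right; the horizontal line is the mean of 3 libraries and the bar its SD, which is left out for Nefh, Ina and Stmn3. Nefl, Nefm and Gap43 were highest in siCrebl2 ethanol, Stmn2 in siCrebl2 rapamycin and Mapt in siLuc rapamycin libraries, and for Uchl1, Nefh, Ina and Stmn3 each group overlaps the next in the order of means. Groups further apart in that order could be separate, as siCrebl2 rapamycin and siCrebl2 ethanol were for Uchl1.

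Rapamycin lowered both expressed chains. With the control siRNA, in libraries that are also the lower side of the siRNA ratios above, Nefl was 2.33-fold lower in rapamycin than in ethanol (−1.22 in log2, SE 0.10, edgeR adjusted p = 9.9e-08) and Nefm 2.24-fold lower (−1.17, SE 0.14, edgeR adjusted p = 8.9e-06). All 3 rapamycin libraries lay below all 3 ethanol libraries for each gene. With the Crebl2 siRNA, Nefl was 1.96-fold lower (−0.97, SE 0.09, edgeR adjusted p = 3e-07) and Nefm 2.32-fold lower (−1.22, SE 0.12, edgeR adjusted p = 5.6e-07), again in libraries that entered the siRNA ratios. The interaction, here the log2 change by rapamycin in siCrebl2 cells less the one in siLuc cells, was 0.24 for Nefl (SE 0.13) and −0.05 for Nefm (SE 0.19). It is also the difference of the siRNA ratios, so it too is given without a test for the 4 chosen genes. In rapamycin Nefl was still higher in siCrebl2 cells than in siLuc ethanol cells, at 151 ± 23.8 CPM against 53.3 ± 4.66 CPM (SD, n = 3 each).

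As background, 21.6% of the 13247 tested genes were called lower and 19.5% higher by rapamycin with the control siRNA, and 25.6% lower and 19.7% higher with the Crebl2 siRNA. The 7 tested genes of the set divided into 4 lower (Nefl, Nefm, Tubb3 and Gap43), 2 higher (Stmn2 and Mapt) and 1 not called (Uchl1) with the control siRNA. With the Crebl2 siRNA the same 4 were lower, and Stmn2, Mapt and Uchl1 were higher.

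Stmn2 (stathmin 2, also called SCG10; chr3:8509360-8561606, plus strand) is a neuronal stathmin anchored to vesicle membranes. It had 640, 708 and 643 CPM in siCrebl2 rapamycin and 407, 392 and 398 CPM in siCrebl2 ethanol libraries, against 267, 290 and 275 CPM in siLuc rapamycin and 167, 172 and 170 CPM in siLuc ethanol libraries. Its groups were separate as well, but rapamycin stood above ethanol. The siRNA ratio was 2.35-fold in ethanol (1.23, SE 0.05) and 2.39-fold in rapamycin (1.26, SE 0.05), without a test.

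Rapamycin raised Stmn2 1.64-fold with the control siRNA (0.71, SE 0.05, edgeR adjusted p = 1.3e-08) and 1.66-fold in siCrebl2 cells (0.73, SE 0.05, edgeR adjusted p = 5.9e-09). For Stmn2 too, both comparisons used libraries that entered the siRNA ratios. Its interaction term was 0.02 (SE 0.07, without a test), and the highest of its levels was that of siCrebl2 rapamycin cells, 664 ± 38.6 CPM (SD, n = 3). Stmn3, another neuronal stathmin (chr2:181306459-181314500, minus strand), had 3 to 8 counts in each library, and each group overlapped the next in the order of means.

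Tubb3, class III beta-tubulin (chr8:123411424-123422015, plus strand; 58.5% of its exonic bases countable), had 53.6, 62.2 and 54.0 CPM in siCrebl2 rapamycin and 133, 130 and 137 CPM in siCrebl2 ethanol libraries, against 35.0, 40.3 and 37.5 CPM in siLuc rapamycin and 75.7, 71.0 and 77.4 CPM in siLuc ethanol libraries. Unlike for the neurofilament chains, siLuc ethanol libraries lay above siCrebl2 rapamycin libraries. The siRNA ratio was 1.79-fold in ethanol (0.84, SE 0.06) and 1.5-fold in rapamycin (0.59, SE 0.06), without a test. Rapamycin lowered it 1.99-fold with the control siRNA (−0.99, SE 0.06, edgeR adjusted p = 7.9e-09) and 2.36-fold in siCrebl2 cells (−1.24, SE 0.06, edgeR adjusted p = 3.9e-10). For Tubb3 too, both comparisons used libraries that entered the siRNA ratios. The interaction was −0.25 (SE 0.09, without a test).

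Tubb3 was a small part of beta-tubulin RNA. Per countable length it made up 2.21% to 2.35% of the summed beta-tubulin level in siCrebl2 rapamycin and 4.80% to 4.88% in siCrebl2 ethanol libraries, against 1.90% to 1.97% in siLuc rapamycin and 3.33% to 3.56% in siLuc ethanol libraries. Tubb5, the isotype with the greatest share of the 7 summed, held 56.8% to 57.8%, 48.7% to 49.1%, 55.7% to 56.4% and 45.6% to 45.9% in the same order of groups.

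Gap43 (chr16:42248442-42340651, minus strand) was not chosen for its rise, and it too was higher with the Crebl2 siRNA. It had 194, 240 and 207 CPM in siCrebl2 rapamycin and 269, 257 and 272 CPM in siCrebl2 ethanol libraries, against 83.1, 93.6 and 76.5 CPM in siLuc rapamycin and 124, 124 and 125 CPM in siLuc ethanol libraries. The groups stood in the order seen for Nefl and Nefm, with no overlap. The Crebl2 siRNA raised it 2.14-fold in ethanol (1.10, SE 0.07, edgeR adjusted p = 3.6e-08) and 2.53-fold in rapamycin (1.34, SE 0.08, edgeR adjusted p = 5.9e-09).

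In the rapamycin comparisons Gap43 was 1.48-fold lower with the control siRNA (−0.56, SE 0.08, edgeR adjusted p = 2.1e-05) and 1.25-fold in siCrebl2 cells (−0.32, SE 0.07, edgeR adjusted p = 0.0023), with an interaction of 0.24 (SE 0.11, edgeR adjusted p = 0.31). In siCrebl2 rapamycin, library 2 was the highest of its group for Nefl, Nefm, Stmn2, Tubb3 and Gap43. Without it the rapamycin changes with the Crebl2 siRNA were −1.09 for Nefl, −1.40 for Nefm, 0.71 for Stmn2, −1.29 for Tubb3 and −0.39 for Gap43, and each was still called.

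Mapt, which encodes tau (chr11:104231390-104332090, plus strand), went the other way. It had 14.2, 14 and 16.5 CPM in siCrebl2 rapamycin and 4.90, 5.16 and 6.14 CPM in siCrebl2 ethanol libraries, against 23.2, 21.7 and 24.3 CPM in siLuc rapamycin and 15, 15.1 and 15.1 CPM in siLuc ethanol libraries. The siCrebl2 ethanol libraries were lowest, siLuc rapamycin libraries highest, and siCrebl2 rapamycin overlapped siLuc ethanol. The Crebl2 siRNA lowered it 2.78-fold in ethanol (−1.48, SE 0.09, edgeR adjusted p = 1.6e-08) and 1.55-fold in rapamycin (−0.64, SE 0.09, edgeR adjusted p = 3.8e-05).

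In turn, Mapt was raised by rapamycin, 1.53-fold with the control siRNA (0.61, SE 0.08, edgeR adjusted p = 2.7e-05) and 2.74-fold in siCrebl2 cells (1.46, SE 0.09, edgeR adjusted p = 5.5e-09). The difference between these changes was itself called (interaction 0.84, SE 0.13, edgeR adjusted p = 0.0036). Of the 3 genes tested for it, Gap43, Mapt and Uchl1, only Mapt had a called interaction, against a background of 0.611% of tested genes higher and 0.589% lower. Nearly all of its counted reads came from Mapt-204: Mapt-203 had 0 to 2 per library, and Mapt-201 and Mapt-202 have no base of their own. Of its bases, 94.1% of the countable ones lay in the 3' UTR and 1.17% in coding sequence, so these counts say nothing about the splice forms of tau.

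Uchl1, a ubiquitin C-terminal hydrolase abundant in neurons (chr5:66676091-66687234, plus strand), moved little. It had 5.90, 6.27 and 5.72 CPM in siCrebl2 rapamycin and 4.87, 4.65 and 4.65 CPM in siCrebl2 ethanol libraries, against 5.10, 5.29 and 4.65 CPM in siLuc rapamycin and 5.98, 4.95 and 5.66 CPM in siLuc ethanol libraries. In the order of its means, each group overlapped the next, but groups further apart could be separate. The siCrebl2 rapamycin libraries lay above all siCrebl2 ethanol and siLuc rapamycin libraries, and siLuc ethanol lay above siCrebl2 ethanol libraries. Uchl1 was called in 1 comparison, higher in rapamycin in siCrebl2 cells (0.34, SE 0.10, edgeR adjusted p = 0.013). Its siRNA changes of −0.23 in ethanol (SE 0.10, edgeR adjusted p = 0.092) and 0.25 in rapamycin (SE 0.10, edgeR adjusted p = 0.071) did not pass, nor did its interaction of 0.47 (SE 0.14, edgeR adjusted p = 0.13). The Uchl1 exons overlap those of Uchl1os, on the other strand, over 244 bases.

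With the Crebl2 siRNA, 21.4% of all tested genes were called higher and 17% lower in ethanol, and 16.3% higher and 16.8% lower in rapamycin. Of the 3 tested genes not chosen for their rise, Gap43 was called higher and Mapt lower in both, and Uchl1 in neither. With no filter on low counts, Nefh, Ina and Stmn3 were called in no comparison by edgeR; the smallest edgeR adjusted p among them was 0.091, for Ina in rapamycin with the Crebl2 siRNA.

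**Figure D2:**
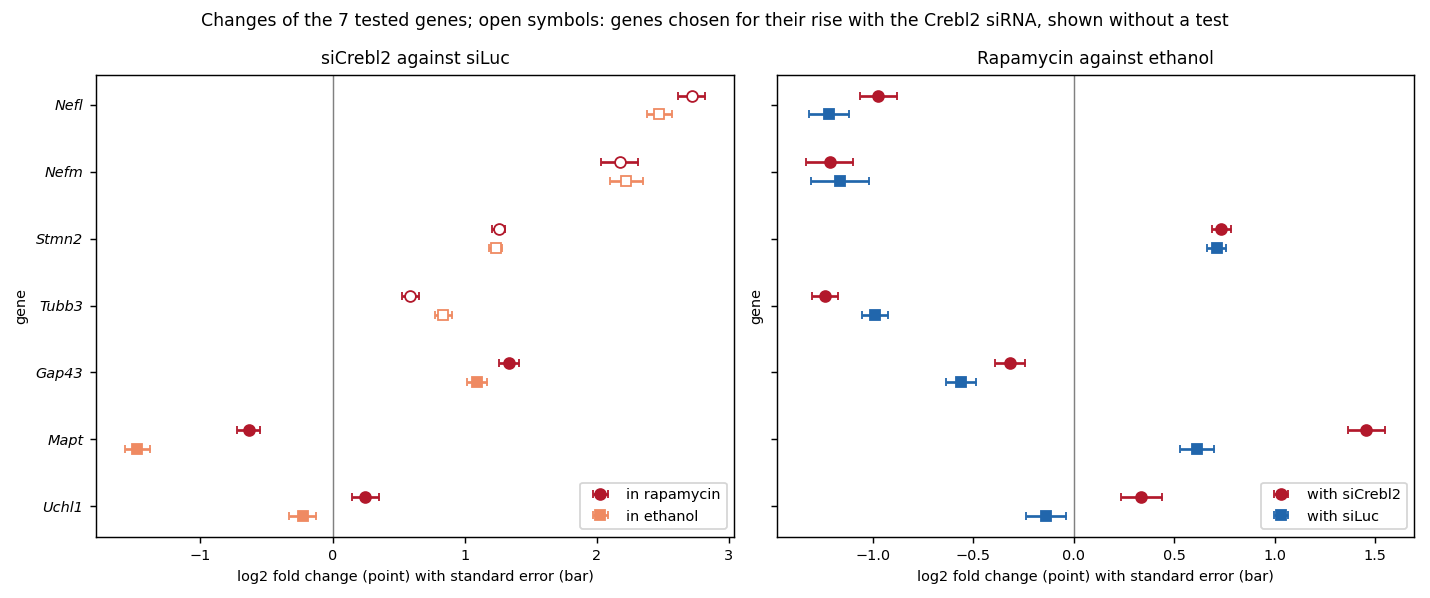
Log2 fold change (point) and standard error (bar) of the 7 tested genes. Left, siCrebl2 against siLuc, in rapamycin (circles) and in ethanol (squares), with open symbols for the 4 genes chosen for this rise and not tested; right, rapamycin against ethanol, with siCrebl2 (circles) and with siLuc (squares). Nefl, Nefm, Tubb3 and Gap43 were higher with the Crebl2 siRNA and lower in rapamycin, Stmn2 was higher in both, and Mapt was lower with the siRNA and higher in rapamycin.

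Per countable length, the order of the genes also differed by group. Stmn2 was highest in siCrebl2 rapamycin (320 CPM per kb, with Gap43 at 150), in siCrebl2 ethanol (192, Gap43 187) and in siLuc rapamycin (134, Gap43 59.4), and Gap43 was highest in siLuc ethanol cells (87.7, Stmn2 81.8). Tubb3 followed in every group, at 51.8, 122, 34.4 and 68.4 CPM per kb in that order of groups. Mapt had 3.66, 1.33, 5.68 and 3.71 CPM per kb and was above Nefm in siLuc rapamycin cells.

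Ratios within a library set related genes side by side, as log2 of the ratio per countable length. Their rapamycin tests used libraries that also entered the siRNA comparisons by which Nefl, Nefm, Stmn2 and Tubb3 were chosen. The ratio of Nefm to Nefl was −2.077 ± 0.103 in siCrebl2 rapamycin and −1.821 ± 0.058 in siCrebl2 ethanol, against −1.521 ± 0.038 in siLuc rapamycin and −1.568 ± 0.097 in siLuc ethanol libraries (SD, n = 3 each). Rapamycin changed it by −0.104 on average over both siRNAs, which a 2-sided exact permutation test within siRNA did not call (p = 0.155, also 0.155 when adjusted over the 3 ratios tested). That average pools changes of opposite sign, −0.256 with the Crebl2 siRNA, where the rapamycin and ethanol libraries did not overlap, and 0.047 with the control siRNA, where they did. The change within each siRNA was not tested.

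The ratio of Stmn2 to Stmn1, the widely expressed stathmin, was 1.141 ± 0.105 in siCrebl2 rapamycin and −0.369 ± 0.087 in siCrebl2 ethanol, against 0.078 ± 0.132 in siLuc rapamycin and −1.449 ± 0.062 in siLuc ethanol libraries. Rapamycin raised it by 1.518 on average, 1.51 with the Crebl2 siRNA and 1.527 with the control siRNA (2-sided exact permutation p = 0.005, the smallest that the 400 arrangements allow, 0.015 adjusted over the 3 ratios). Stmn1 itself fell by 0.82 with the control siRNA and by 0.77 with the Crebl2 siRNA in rapamycin, so both genes took part in the change. Of the Stmn1 bases, 41.5% were countable.

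The ratio of Tubb3 to Tubb6, a widely expressed beta-tubulin, was −1.330 ± 0.049 in siCrebl2 rapamycin and −1.034 ± 0.037 in siCrebl2 ethanol, against −1.962 ± 0.041 in siLuc rapamycin and −2.033 ± 0.069 in siLuc ethanol libraries. Rapamycin changed it by −0.112 on average (2-sided exact permutation p = 0.115, 0.155 adjusted over the 3 ratios), which again pools opposite signs. With the Crebl2 siRNA the change was −0.296, and the rapamycin and ethanol libraries did not overlap. With the control siRNA it was 0.071, and they overlapped. Neither change was tested alone, and 3 against 3 libraries allow no 2-sided exact p under 0.1.

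**Figure D3:**
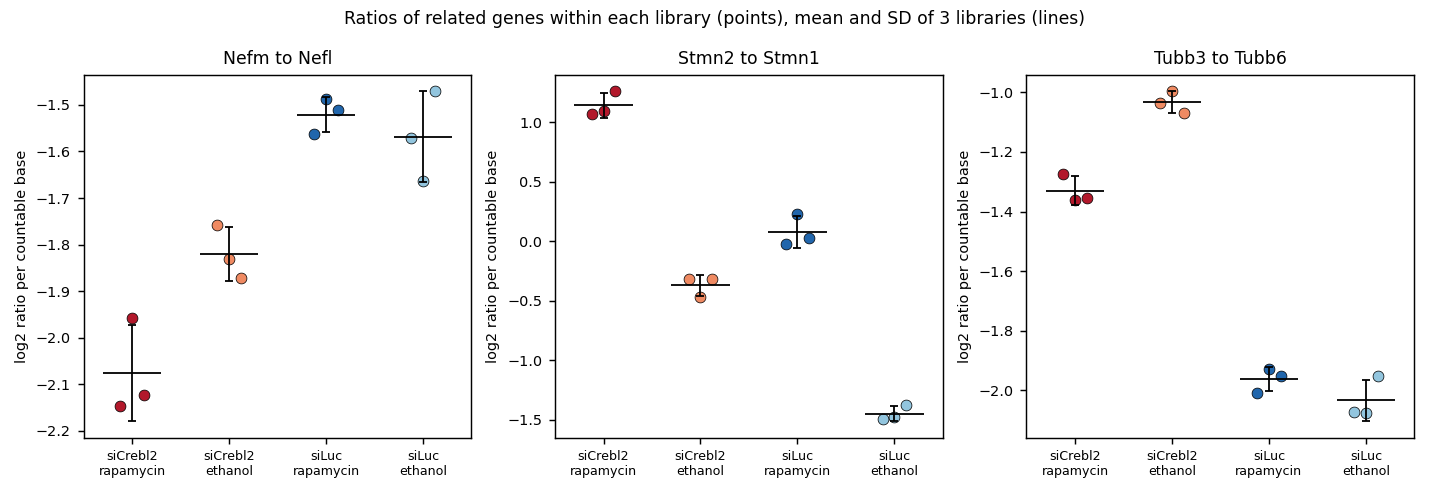
Log2 ratio per countable base of Nefm to Nefl, Stmn2 to Stmn1 and Tubb3 to Tubb6 in every library (points), with siCrebl2 rapamycin, siCrebl2 ethanol, siLuc rapamycin and siLuc ethanol libraries from left to right, and the mean and SD of 3 libraries (lines). The ratio of Stmn2 to Stmn1 was higher in rapamycin with both siRNAs, at 1.141 against −0.369 with siCrebl2 and at 0.078 against −1.449 with siLuc.

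Likeness of levels was measured against 7109 protein-coding genes of 5 CPM or more on average. The genes described here were left out of the candidates, so none of them could be listed. By centred log2 levels over the 12 libraries, Areg, an EGF receptor ligand, was closest to Nefl (root mean square difference 0.316). Gzme, a granzyme (0.431), and Stc1, the secreted glycoprotein stanniocalcin 1 (0.458), came next. They were followed by Tnc, the matrix protein tenascin C (0.476, 12.1% countable), and Osbp2, an oxysterol-binding protein (0.594, 27.0% countable). Areg averaged 13.4 ± 2.06 CPM in siCrebl2 rapamycin and 24.6 ± 1.06 CPM in siCrebl2 ethanol, against 2.72 ± 0.592 CPM in siLuc rapamycin and 6.57 ± 0.451 CPM in siLuc ethanol libraries. Closest to Stmn2 were Fst, the activin antagonist follistatin (0.143), the smooth-muscle proteins Lmod1 (0.201) and Cnn1 (0.229), the collagen receptor chain Itga11 (0.230) and the hyaluronan synthase Has2 (0.231). Fst averaged 45.1 ± 2.44 CPM in siCrebl2 rapamycin and 24.1 ± 0.881 CPM in siCrebl2 ethanol, against 17.7 ± 1.03 CPM in siLuc rapamycin and 9.36 ± 0.699 CPM in siLuc ethanol libraries.

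Closest to Tubb3 were Ppa1, an inorganic pyrophosphatase (0.0924), Nme1, a nucleoside diphosphate kinase (0.111), Gemin6, of the SMN complex (0.126), Shmt1, a serine hydroxymethyltransferase (0.126), and Nasp, a histone chaperone (0.131; 51.0% countable). Ppa1 averaged 72.3 ± 6.92 CPM in siCrebl2 rapamycin and 181 ± 3.82 CPM in siCrebl2 ethanol, against 47.1 ± 0.562 CPM in siLuc rapamycin and 105 ± 3.45 CPM in siLuc ethanol libraries. None of these 15 genes encodes a neuronal cytoskeletal protein. This was in part fixed in advance, as the genes described here were left out of the candidates. The measure says how similar the levels were and nothing of shared control.

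The other tubulins mostly followed Tubb3 in sign, with smaller siRNA changes in ethanol. Tubb3 itself was chosen for its rise with that siRNA. In rapamycin the siRNA change of Tubb2b was similar to that of Tubb3. Tubb2b, named after its values were seen, averaged 856 ± 54.7 CPM in siCrebl2 rapamycin and 560 ± 34.6 CPM in siLuc rapamycin libraries (SD, n = 3 each). Of 13 listed, 11 were tested: in ethanol 9 were called higher and none lower with the Crebl2 siRNA (median log2 fold change 0.393, against 0.012 over all tested genes), and in rapamycin 7 higher and none lower (median 0.179, against −0.013). Tuba1c changed by 0.56, Tuba4a by 0.43, Tubb5 by 0.43 and Tubb4b by 0.41 with that siRNA in ethanol. Rapamycin with the control siRNA lowered 7 and raised 1 (median −0.657, against 0.017 over all tested genes), among them Tuba4a at −1.26, Tubb6 at −1.06 and Tubb4b at −0.88, while Tubb5 was not called at 0.12. With the Crebl2 siRNA 7 were lower and 1 higher in rapamycin (median −0.898, against −0.012). The counts of this list and those below stand beside shares over all 13247 tested genes. With the Crebl2 siRNA in ethanol these shares were 21.4% higher and 17% lower. In rapamycin with the control siRNA they were 19.5% higher and 21.6% lower.

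Of 13 other stathmins and microtubule proteins, 8 were tested. In ethanol the Crebl2 siRNA raised 4 and lowered none (median 0.204), with Map1a, a dendritic microtubule-binding protein (0.37; 15.6% countable), Map6, which stabilises microtubules against cold (0.35; 43.9% countable), and Mapre1, a plus-end binding protein (0.17), among them. Rapamycin with the control siRNA lowered 4 and raised none (median −0.387), including Stmn1 at −0.82, Map1a at −0.42 and Mapre1 at −0.38.

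Of 12 other intermediate filament genes, 6 were tested. In ethanol the Crebl2 siRNA raised 3 and lowered 1 (median 0.234), namely Vim, which encodes vimentin (0.38; 19.0% countable), the lamins Lmna (0.28; 39.6% countable) and Lmnb1 (0.23), and Sync, a desmin-binding protein of muscle (−0.35). Vim rose by 0.83 in rapamycin with the control siRNA, where Nefl and Nefm fell, and Lmnb1 fell by 0.97 there. Of those tested on this list, rapamycin with the control siRNA raised 3 and lowered 1 (median 0.037).

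All 10 listed genes for filament transport and turnover were tested, and 1 was higher and 3 were lower with the Crebl2 siRNA in ethanol (median −0.102). The kinesin heavy chains fell, Kif5a, the neuronal form, by 0.52, Kif5c by 0.20 and Kif5b by 0.17. In rapamycin with the control siRNA 2 were higher and 3 lower (median 0.084), with Kif5a at 0.67 and Dync1h1, the dynein heavy chain, at 0.53. Kif5a averaged 8.27 ± 1.13 CPM in siCrebl2 rapamycin and 5.38 ± 0.0852 CPM in siCrebl2 ethanol, against 12.3 ± 0.716 CPM in siLuc rapamycin and 7.72 ± 0.521 CPM in siLuc ethanol libraries, which is the direction of Mapt in each comparison.

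Of 12 growth cone proteins besides Gap43, 8 were tested, and the Crebl2 siRNA raised 2 in ethanol and lowered none (median −0.041). The share raised was near the 21.4% over all tested genes. The 2 raised were Marcksl1, a MARCKS-like actin regulator (0.78), and Dpysl3, a collapsin response mediator (0.25). Both rose in rapamycin with the control siRNA as well, by 0.40 and 0.80, where Gap43 fell. No other gene of this list was called there.

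Of 12 kinases and phosphatases of tau and neurofilaments, 10 were tested, 1 higher and 2 lower with the Crebl2 siRNA in ethanol (median −0.014). Ppp2r2a, a regulatory subunit of protein phosphatase 2A, was higher (0.31), Cdk5r1, the p35 activator of Cdk5, was lower (−0.27), and Dyrk1a was lower (−2.46, SE 0.85, edgeR adjusted p = 0.033), with 15.8% of its bases countable. Dyrk1a averaged 0.418 ± 0.141 CPM in siCrebl2 ethanol and 2.33 ± 1.98 CPM in siLuc ethanol libraries (SD, n = 3 each). Its call ended without siLuc ethanol library 1 (−1.59, edgeR adjusted p = 0.19), without any 1 siCrebl2 ethanol library (edgeR adjusted p 0.064 to 0.09) and with a block for replicate number (edgeR adjusted p = 0.055). In rapamycin with the control siRNA 2 were higher and 4 lower (median 0.149), with Cdk5r1 at −0.42, Ppp2r2a at −0.25 and Gsk3b at −0.19. Of 3 listed relatives of Uchl1 2 were tested: Uchl3 rose by 0.34 with the Crebl2 siRNA in ethanol and fell by 0.44 in rapamycin with the control siRNA, as did Bap1, by 0.16.

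REST is a repressor that keeps many neuronal genes silent in other cells. Of 13 genes of its complex, 9 were tested. In ethanol the Crebl2 siRNA raised 3 and lowered 3 (median −0.22), with Hdac1 at 0.37, Hdac2 at 0.28 and Rcor1 at 0.27 higher. The 3 lowered were Kdm1a (−0.62; 3.26% countable), Ctdspl (−0.26) and Ctdsp2 (−0.25; 23.2% countable). Rest itself was not called, at −0.22 (edgeR adjusted p = 0.56; 7.14% countable); Kdm1a, Ctdspl and Rest are named after their values were seen. Rapamycin with the control siRNA raised 3 and lowered 3 (median −0.11), with Hdac1 at −0.27, Hdac2 at −0.27 and Ctdsp2 at 0.50.

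**Figure D4:**
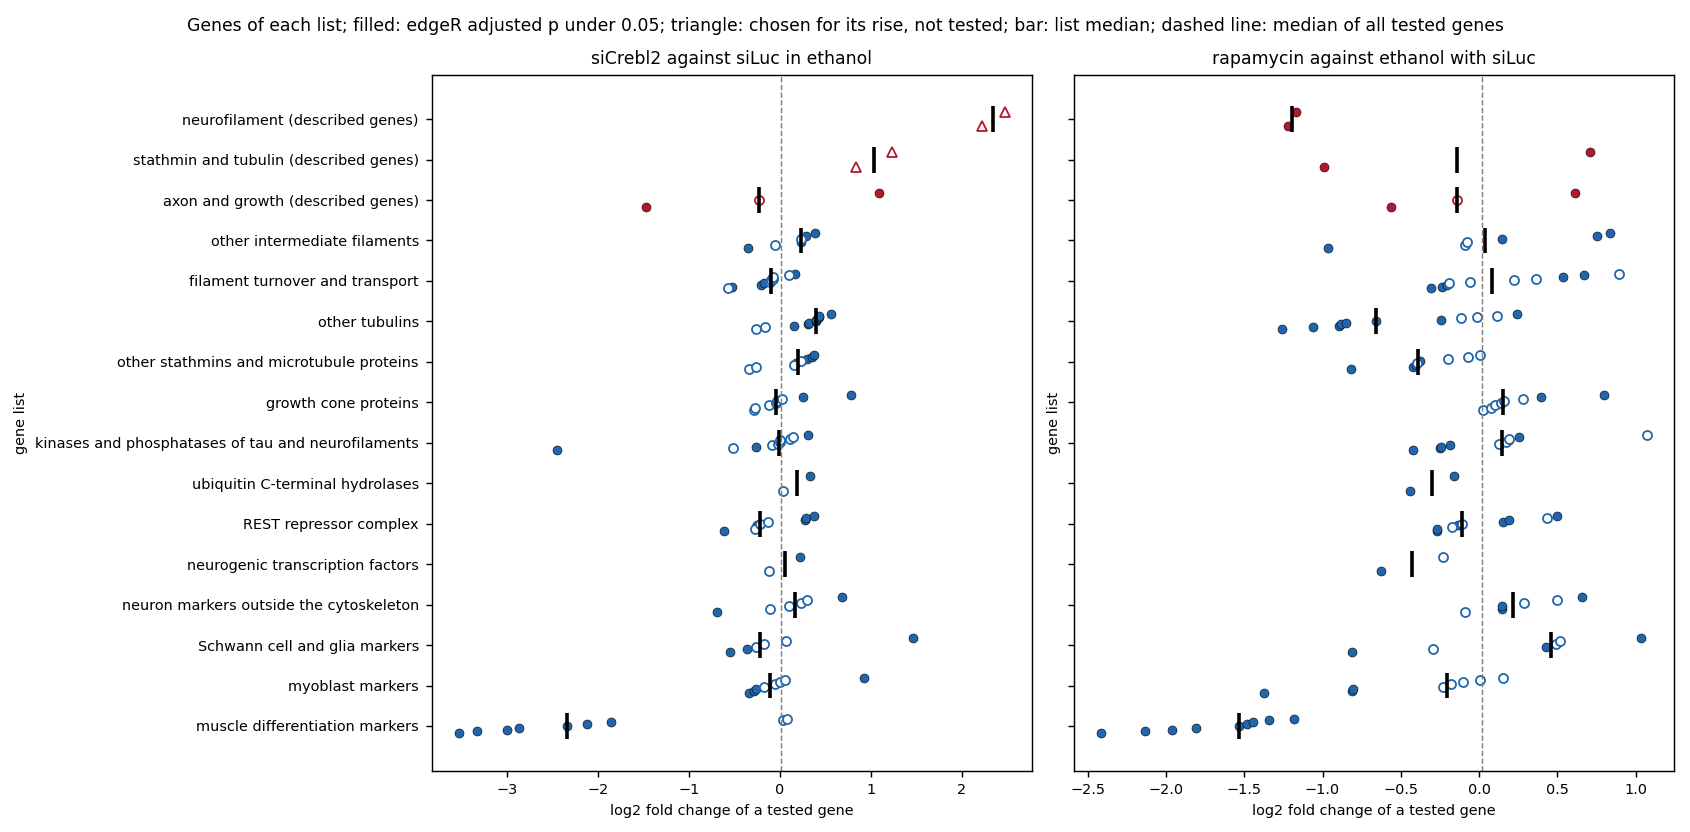
Log2 fold change of the tested genes of each list (points; filled where edgeR's adjusted p was under 0.05, triangles for the 4 genes chosen for their rise and not tested), with the median of the list (bar) and of all tested genes (dashed line), for siCrebl2 against siLuc in ethanol (left) and rapamycin against ethanol with siLuc (right). Muscle differentiation genes had the lowest medians, −2.347 and −1.534, and other tubulins lay mostly right of 0 on the left and left of 0 on the right.

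Markers of other cells were read beside these changes. Of 20 neuron markers outside the cytoskeleton, 8 had no count in any library, among them Rbfox3, Snap25, Elavl4 and Syt1, although of the 8 only Snap25 had most of its bases countable, and 13 of the 20 had at most 10 counts in every library. Chga, Chgb, Scg3, Thy1 and Elavl3, whose bases were all countable, had at most 11 counts. The summed level of the 20 genes, mostly Ncam1 (49.4 to 68.9 CPM over the 12 libraries) and Vamp2 (61.8 to 84.5 CPM), was 129 to 135 CPM in siCrebl2 rapamycin and 123 to 130 CPM in siCrebl2 ethanol, against 137 to 143 CPM in siLuc rapamycin and 126 to 127 CPM in siLuc ethanol libraries. Of the 6 tested, the Crebl2 siRNA in ethanol raised 1, L1cam (0.68; 6.45% countable), and lowered 1, and rapamycin with the control siRNA raised 3, including Ncam1 (0.15) and Vamp2 (0.15).

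Of 16 neurogenic transcription factors, 7 had no count in any library, among them Neurog1, Neurog3, Neurod1 and Neurod4, and 2 were tested. Sox11 was higher with the Crebl2 siRNA in ethanol (0.22) and lower in rapamycin with the control siRNA (−0.62). It averaged 70.1 ± 3.82 CPM in siCrebl2 rapamycin and 90.6 ± 1.69 CPM in siCrebl2 ethanol, against 50.4 ± 3.76 CPM in siLuc rapamycin and 77.6 ± 5.22 CPM in siLuc ethanol libraries. The summed list had 69 to 76.1, 92 to 94.8, 48.8 to 56.7 and 75.2 to 86.3 CPM in those groups, mostly Sox11.

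Of 11 Schwann cell and glia markers, 6 were tested, and Foxd3 and Aqp4 had no count in any library. Their sum, mostly Slc1a3 (258 to 539 CPM over the 12 libraries), was 281 to 351 CPM in siCrebl2 rapamycin and 324 to 328 CPM in siCrebl2 ethanol, against 516 to 562 CPM in siLuc rapamycin and 409 to 439 CPM in siLuc ethanol libraries. In ethanol the Crebl2 siRNA raised 1, Ngfr (1.46), and lowered 2, Erbb3 (−0.55) and Slc1a3 (−0.37). Rapamycin with the control siRNA raised 2, S100b (1.04) and Slc1a3 (0.42), and lowered Erbb3 (−0.81). Ngfr and S100b were scarce, with at most 73 and 34 counts in a library. Ngfr averaged 1.75 CPM in siCrebl2 ethanol and 0.641 CPM in siLuc ethanol libraries. S100b averaged 0.797 CPM in siLuc rapamycin and 0.388 CPM in siLuc ethanol libraries.

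Muscle markers moved with both treatments. Of 20 muscle differentiation markers 9 were tested, and 7 were lower and none higher with the Crebl2 siRNA in ethanol (median −2.347), among them Actc1, cardiac alpha-actin (−3.53), Acta1, skeletal alpha-actin (−3.00), and Myom2, of the M-band (−2.12). On this list 7 of the 20 genes had under 10% of their bases countable, so low counts there do not show absence. All 9 tested were lower in rapamycin with the control siRNA (median −1.534). Their summed level was 219 to 241 CPM in siCrebl2 rapamycin and 290 to 335 CPM in siCrebl2 ethanol, against 329 to 383 CPM in siLuc rapamycin and 868 to 1050 CPM in siLuc ethanol libraries. Nefl, Nefm, Tubb3 and Gap43 thus moved against these markers with the siRNA and with them in rapamycin.

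Of 8 myoblast markers, all tested, the Crebl2 siRNA in ethanol raised 1, Msc (0.93), and lowered 3, including Myf5 (−0.26). Rapamycin with the control siRNA lowered 3, among them Itga7 (−0.81) and Cdh15 (−0.80), and raised none (median −0.206). Their sum was 2170 to 2310 CPM in siCrebl2 rapamycin and 2510 to 2880 CPM in siCrebl2 ethanol, against 1900 to 2020 CPM in siLuc rapamycin and 2820 to 2970 CPM in siLuc ethanol libraries. The part of these cell type markers in the changes of the neuronal cytoskeleton genes was not tested, and in bulk RNA fewer cells of a type and less RNA per cell cannot be told apart.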

How the data were processed

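Total RNA libraries (TruSeq Stranded Total RNA) of C2C12 cells were sequenced, 3 in each of 4 groups, grouped by the labels. The deposited files hold the authors' raw read counts per Ensembl transcript (58611), with no normalization. Trim Galore, TopHat, HTSeq and the builds mm9 and GRCm38 are named in the submitters' processing notes; versions, strand setting and annotation release are not given in the sources used here. Identifiers were matched to GENCODE M21 (58264, or 99.41%; the other 347 held 0.038% of counts and were left out) and summed to 38481 genes, as the planned tests needed gene counts. Reads shared by several listed transcripts are missing, so each level rests on countable bases, those of 1 listed transcript on its strand.

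Genes passing edgeR's filter by group (minimum count 10) numbered 13247. After TMM scaling, edgeR 4.0.16 (R 4.3.3) fitted its quasi-likelihood model and test, with 4 group means, all 12 libraries in 1 fit and 5 contrasts, Benjamini-Hochberg adjusted over all genes and called under 0.05; the SE was taken as the log2 change over the root of F. The common biological coefficient of variation was 6.85%. The fit was tested on simulated data. Ratios used counts plus 0.5 and exact permutation within siRNA (scipy 1.17.1). Length counts transcripts with at least 10% of a gene's reads. Alternatives were DESeq2 1.42.0, RLE scaling, a minimum count of 50 or none, a block for replicate number, only the compared groups, only transcripts with their own bases, a pseudocount of 1 for ratios, and each library left out.

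Named genes were the 10 genes, Crebl2, the 3 called genes with the smallest p of each list in the siRNA contrast in ethanol and the rapamycin contrast with siLuc, and the 5 genes outside the 10 that were closest to Nefl, Stmn2 and Tubb3. Markers at 0 and other defining markers were added after their values were seen. The genes and lists were chosen with earlier results of these data known. Some genes that the naming rule picked are not reported here.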

Additional observations from a re-analysis of the deposited data

Results flagged for a closer look

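The interaction, the log2 change by rapamycin in siCrebl2 cells less the one in siLuc cells, passed edgeR's adjusted threshold in the main fit for 8 of the genes that the naming rule picked. Among the neuronal cytoskeleton genes this was Mapt, at 0.84, which rose more in rapamycin with the Crebl2 siRNA (1.46) than with the control siRNA (0.61). Among the marker lists, the differences were 0.59 for Erbb3, of the glia list, 0.39 for Itga7 and 0.41 for Cdh15, of the myoblast list, and 1.27 for Actc1, 0.50 for Myom2, 1.13 for Acta1 and 0.99 for Actn3, of the muscle differentiation list. For these 7 rapamycin lowered the level less with the Crebl2 siRNA than with the control siRNA. Acta1, for example, changed by −0.36 with the Crebl2 siRNA and by −1.48 with the control siRNA. The interaction calls of Itga7, Cdh15 and Myom2 ended with a block for replicate number.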

How the results depend on the processing

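Of 6652 values of single genes under the alternatives, 6424 stayed on their side of the threshold or, if untested, within the spread. A further 157 no longer passed, 62 newly passed, and 9 untested values moved by more than the spread. No called value and no untested siRNA ratio changed sign. Sign changes of other values were not counted, and the untested interaction of Nefm ran from −0.21 to 0.12. Of the tested values of the 7 genes, 431 of 434 stayed on their side of the threshold. Uchl1 was called with RLE scaling in siCrebl2 against siLuc in rapamycin (0.28, edgeR adjusted p = 0.048), which made 2 of the 3 genes tested there higher, and without siLuc ethanol library 2 in ethanol (−0.30, edgeR adjusted p = 0.041). Without a count filter, 2 of the 3 genes tested for it had a called interaction, Gap43 (0.30, edgeR adjusted p = 0.013) beside Mapt, whose interaction ran from 0.77 to 0.95 over all alternatives; the cause was not tested. Over all genes, the interaction called 81 higher and 78 lower. It called 310 higher without a filter and 195 with DESeq2, and 49 lower with RLE scaling, 36 with the replicate block and 193 with DESeq2. Leaving out each library gave 56 to 136 higher and 18 to 63 lower for the interaction, and for the gene set 1 and 0. In siCrebl2 against siLuc in ethanol, the counts of the gene set, with the 4 chosen genes left out, were then 1 higher (Gap43) and 1 to 2 lower. Of the list genes given above, leaving out 1 library also ended the calls of Cdk5r1, Ctdsp2, Kif5c, L1cam, Lmnb1 and Map1a with the Crebl2 siRNA in ethanol, of Ncam1 and Vamp2 in rapamycin with the control siRNA, and of Cdh15 and Myom2 for the interaction (edgeR adjusted p 0.052 to 0.3). Replicate numbers did not pair the libraries: same-numbered pairs correlated at −0.257 to 0.12, and 3 of 12 libraries correlated best with their own number. The replicate block changed no tested call of the 7 genes (interaction of Mapt 0.85, edgeR adjusted p = 0.0053). Among the marker lists it ended the interaction calls of Itga7 (0.39, edgeR adjusted p = 0.059), Cdh15 (0.41, edgeR adjusted p = 0.076) and Myom2 (0.51, edgeR adjusted p = 0.063). Ratio changes ran, with each library left out, from −0.134 to −0.0796 for Nefm to Nefl, from 1.48 to 1.54 for Stmn2 to Stmn1 and from −0.127 to −0.0924 for Tubb3 to Tubb6, with no change of call. Depth limits Nefh, Ina and Stmn3, with at most 10 counts per library.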
